A study of Arabidopsis thaliana with 4 samples.

Results

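The plastid genome of Arabidopsis encodes part of the photosynthetic machinery and part of the apparatus that expresses it, and its transcripts were followed here in flower buds of the cdm1 mutant and of wild type plants. Members were the probe sets whose single gene symbol in GEO's platform annotation belongs to a protein-coding gene of the plastid genome: psa, psb, pet, ndh, rpo and atp genes, rbcL, accD, clpP, matK, ycf genes, and rpl or rps genes listed on that genome. They numbered 67 of 22746 probe sets, 1 for each of 67 genes, out of 78 plastid protein-coding gene names in the gene table. Another 8 probe sets, of 7 gene names, stand for several plastid gene records (rps12, rpl2, rpl23, ycf2, ndhB, rps7 and ycf1) and were left out, as were ccsA and cemA, whose symbols fall outside the rule.

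Total RNA came from unopened flower buds of Col-0 plants 24 days after germination, and 500 ng per sample was labelled for Affymetrix expression arrays. Of the 4 arrays, 2 came from cdm1 buds and 2 from wild type buds, as biological replicates. CDM1, CALLOSE DEFECTIVE MICROSPORE1, encodes a CCCH zinc finger protein of the anther, and the labels name neither the allele nor the line. Whether any sampled plant had the moderate drought that the growth protocol describes is not labelled. CDM1 itself is not analysed here, so its level could not check the genotype labels. AMS, a regulator of the tapetum, the cell layer that feeds developing pollen, read 11.29 and 11.26 on the log2 scale in cdm1 buds, against 11.09 and 11.09 in wild type buds. The petal development factors PTL and RBE lay between 3.70 and 6.91, and the late pollen factors AGL66 and AGL104 between 3.51 and 4.06. Pairs of arrays correlated across probe sets at r = 0.998 for wild type, 0.996 for cdm1 and 0.991 to 0.994 between genotypes. Those values describe the arrays, since probe sets are not independent replicates.

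Plastid genes are transcribed by a bacterial-type polymerase, whose core subunits are the plastid rpo genes and whose sigma factors come from the nucleus, and by phage-type polymerases encoded in the nucleus. The photosystem genes depend mainly on the bacterial-type enzyme, while accD and the rpoB operon are textbook examples of genes read by the phage-type enzyme. Many plastid genes lie in operons, and their long transcripts are cut and trimmed into smaller RNAs, which in plastids mostly carry no stable poly(A) tail. How the RNA was primed for labelling is not stated in the sources used here. In whole buds, fewer plastid-rich cells and less plastid RNA per cell cannot be told apart.

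Most plastid-encoded transcripts read slightly lower in cdm1 buds, but 1 of 67 passed the test, the photosystem I gene psaC. Its level was 1.83-fold lower in cdm1 than in wild type. No member passed as higher. Over all probe sets, limma with Benjamini-Hochberg adjustment called 0.73% as lower and 0.602% as higher at an adjusted p of 0.05. The log2 fold change, cdm1 minus wild type, was below 0 for 57 of 67 members (85.1%), against 49% of all probe sets, and its median was -0.19 over the members and 0.0036 over all probe sets. Both cdm1 arrays lay below both wild type arrays for 31 members (46.3%), against 23.6% of all probe sets, and above them for 0 members, against 23.7%. At an unadjusted p of 0.05, 15 members (22.4%) were lower, against 7.55% of all probe sets, and 0 were higher, against 7.7%. The members share arrays, transcripts and a genome, so these shares are descriptions and carry no test of the whole set.

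The 2 cdm1 arrays differed in how far they lay below wild type. Relative to the wild type mean, the members' median was -0.31 on cdm1 replicate 1 and -0.062 on cdm1 replicate 2, while all probe sets had medians of 0.030 and -0.022 on the same arrays. On cdm1 replicate 1, 66 of 67 members lay below the wild type mean, against 44% of all probe sets, and on cdm1 replicate 2, 45 did, against 55.7%. Cdm1 replicate 1 was the lowest of the 4 arrays for 55 members (82.1%), against 24.1% of all probe sets. Within cdm1, replicate 1 minus replicate 2 had a median of -0.27 over the members, with 61 of 67 below 0, while within wild type the same difference had a median of 0.0051, with 32 below 0. The distance between the cdm1 arrays was thus larger than the members' median genotype difference. Without cdm1 replicate 1, the difference turned or was over 1.5 times smaller for 43 of the 57 members below 0. Among them were 22 of the 31 without overlap. Without cdm1 replicate 2 this held for 2 and 0. Each difference averages the deviations of the 2 cdm1 arrays, so these counts largely restate the gap between those arrays. The same counts were not made over all probe sets. Fits without 1 array leave a genotype with a lone array, which is assumed to vary like the other genotype's pair, so their calls describe single arrays. Without cdm1 replicate 2, limma called 16 members, all lower (2.32% of all probe sets were lower there), and without cdm1 replicate 1 it called accD as lower (0.55% of all probe sets). When wild type replicate 1 was left out, limma called 0 members and 0 probe sets in all, with 6 members and 1619 probe sets at an unadjusted p of 0.05, and leaving out wild type replicate 2 gave 0 and 0, with 7 members and 2133 probe sets. Of the 3 tapetum markers measured, SHT passed as higher in cdm1, at 10.01 and 10.28, against 8.78 and 8.05 in wild type (difference 1.73, SE 0.24, limma adjusted p = 0.0367). The others, ATA27 and AMS, were at 0.94 (SE 0.18, limma adjusted p = 0.0905) and 0.18 (SE 0.089, limma adjusted p = 0.395). Their part in the plastid differences was not tested.

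**Figure D1:**
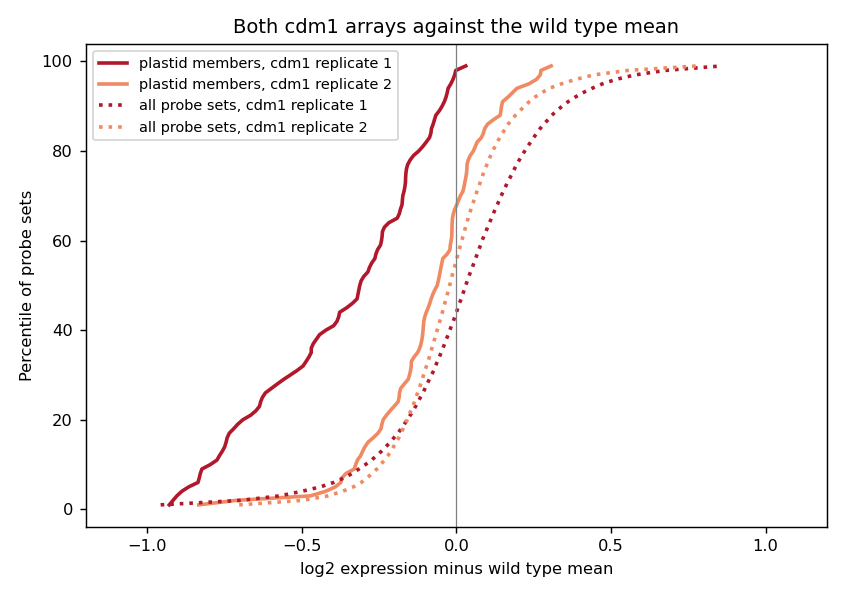
Cumulative distribution of each cdm1 array's log2 expression minus the wild type mean (horizontal axis, log2 units; vertical axis, percentile of probe sets), for the 67 plastid-encoded members (solid) and all 22746 probe sets (dotted). The members' curve for cdm1 replicate 1 lies to the left with a median of -0.31, while that for replicate 2 has a median of -0.062.

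Photosystem I passes electrons from plastocyanin to ferredoxin, and its 5 measured plastid genes all had negative fold changes (median -0.31). The gene psaC (locus ArthCp075) encodes the small iron-sulfur subunit that hands electrons to ferredoxin. It read 5.20 and 5.30 in cdm1 buds, against 6.25 and 5.995 in wild type buds. Both mutant arrays were thus lower than both wild type arrays, and here the cdm1 replicates lay closer together than the wild type ones. The difference was -0.88 (SE 0.12, limma adjusted p = 0.0351). Its mutant levels sit just under 5.32, below which the dimmest 33.3% of probe sets lie, and whether they exceeded background was not tested. The call was lost without cdm1 replicate 1 (difference -0.83, limma adjusted p = 0.0674), with wild type replicate 1 left out (-0.75, limma adjusted p = 0.288), and with wild type replicate 2 left out (-1.005, limma adjusted p = 0.160).

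The reaction centre genes psaA and psaB did not pass. The psaA probe set read 7.05 and 7.47 in cdm1, against 7.90 and 7.69 in wild type, a difference of -0.53 (SE 0.16, limma adjusted p = 0.209). For psaB the values were 12.72 and 12.95 in cdm1 and 13.15 and 13.06 in wild type, a difference of -0.27 (SE 0.11). In both genes the genotypes did not overlap and cdm1 replicate 1 was the lowest array. The small subunit genes psaI, at -0.31 (SE 0.19), and psaJ, at -0.058 (SE 0.095), had overlapping groups. The assembly factors of photosystem I, ycf3 and ycf4, were at -0.23 (SE 0.15) and -0.36 (SE 0.17), and their genotypes did not overlap. Without cdm1 replicate 1 those differences were -0.022 for ycf3 and -0.15 for ycf4.

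**Figure D2:**
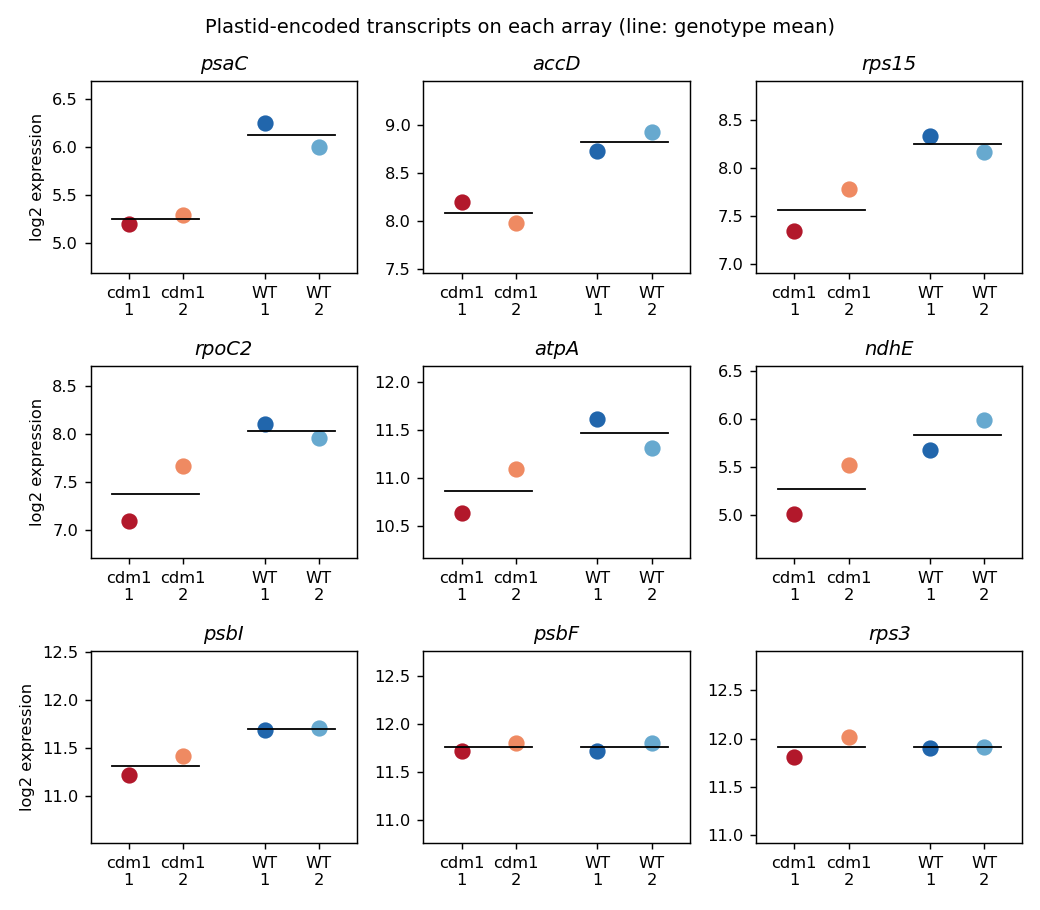
Log2 expression (vertical axes, each spanning 2 log2 units) of 9 plastid-encoded transcripts on the 4 arrays, with a line at each genotype mean. For psaC and accD both cdm1 arrays lie together well below wild type, for rps15, rpoC2, atpA and ndhE cdm1 replicate 1 lies lowest, and for psbF and rps3 the genotype means nearly coincide.

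Photosystem II, which splits water, contributed 15 genes, and their median difference was -0.11. Of these, 11 were below 0 and none passed. Non-overlapping genotypes occurred in 3 (20%), against 23.6% of all probe sets. The gene psbA encodes the D1 protein, the reaction centre subunit that is replaced fastest under light. It read 8.00 and 8.56 in cdm1, against 8.82 and 8.66 in wild type, a difference of -0.46 (SE 0.19, limma adjusted p = 0.332). The small subunit gene psbI had the smallest p of the group, with 11.22 and 11.42 in cdm1 and 11.69 and 11.71 in wild type, a difference of -0.38 (SE 0.11, limma adjusted p = 0.180). The antenna gene psbB, for CP47, was at -0.30 (SE 0.15). The genotypes of these 3 genes did not overlap. Relative to the wild type mean, cdm1 replicate 2 lay at -0.18 for psbA and at -0.098 for psbB, while cdm1 replicate 1 lay at -0.74 and -0.50.

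The other 12 photosystem II genes had overlapping groups. The cytochrome b559 genes psbE and psbF were at -0.011 (SE 0.089) and 0.0012 (SE 0.095). The psbF probe set read 11.72 and 11.80 in cdm1, against 11.72 and 11.80 in wild type, so the arrays paired across genotypes rather than within them. Its neighbours psbL and psbJ were at 0.042 (SE 0.095) and -0.037 (SE 0.13). The second reaction centre gene, psbD, was at -0.086 (SE 0.17) and psbC, for the antenna protein CP43, at -0.11 (SE 0.16). Positive values were reached by psbM, at 0.13 (SE 0.17), and psbZ, at 0.12 (SE 0.19). The psbM probe set read 12.90 and 13.18 in cdm1, against 12.71 and 13.11 in wild type, so the replicates of each genotype differed by more than the genotypes. The remaining genes psbH, psbN, psbT and psbK lay between -0.32 and -0.13.

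The cytochrome b6f complex carries electrons between the photosystems, and its 6 genes had a median difference of -0.17, with 4 below 0. The petB probe set, for cytochrome b6, read 12.45 and 12.54 in cdm1, against 12.69 and 12.69 in wild type, a difference of -0.19 (SE 0.093, limma adjusted p = 0.390). It was the 1 gene of the group whose genotypes did not overlap. The small subunit gene petG read 4.23 and 4.97 in cdm1, against 4.85 and 5.04 in wild type, a difference of -0.34 (SE 0.24) that was 0.031 without cdm1 replicate 1. Cytochrome f, encoded by petA, was at 0.031 (SE 0.21), and its cdm1 arrays lay at -0.31 and 0.37 around the wild type mean. The others were petL at -0.22, petN at -0.15 and petD at 0.037.

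The plastid ATP synthase makes ATP from the proton gradient. Its 6 plastid genes had a median difference of -0.32, and all were below 0. The gene atpA encodes the alpha subunit of the catalytic head. It read 10.64 and 11.09 in cdm1, against 11.62 and 11.32 in wild type, a difference of -0.60 (SE 0.18, limma adjusted p = 0.208). The stalk and ring genes atpF and atpH were at -0.53 (SE 0.16) and -0.51 (SE 0.14, limma adjusted p = 0.183), and atpH read 9.04 and 9.42 in cdm1, against 9.80 and 9.68 in wild type. All 3 had cdm1 replicate 1 lowest, cdm1 replicate 2 next and no overlap between genotypes. In the beta and epsilon subunit genes atpB and atpE the differences were -0.074 (SE 0.11) and -0.048 (SE 0.092), and the atpE values were 13.71 and 13.78 in cdm1 and 13.81 and 13.78 in wild type. Both genes had overlapping groups, and both probe sets read close to the upper end of the arrays, 13.93 to 14.02. The remaining gene, atpI, was at -0.13 (SE 0.14), with overlapping groups.

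The NDH complex of the thylakoid feeds electrons back around photosystem I, and its 10 plastid genes were all below 0, with a median of -0.19. In 7 of them (70%) both cdm1 arrays lay below both wild type arrays, against 23.6% of all probe sets. Of the 7, ndhF was dim, at 3.15 and 3.19 in cdm1, against 3.28 and 3.31 in wild type. The groups of ndhA were barely apart, with cdm1 replicate 2 at 11.092 and wild type replicate 1 at 11.095. The ndhE probe set read 5.01 and 5.52 in cdm1, against 5.67 and 5.99 in wild type, a difference of -0.57 (SE 0.20, limma adjusted p = 0.260). The genes ndhJ and ndhK were at -0.44 (SE 0.21) and -0.43 (SE 0.17), and without cdm1 replicate 1 at -0.11 and -0.21. For ndhI the values were 12.83 and 12.83 in cdm1 and 12.87 and 12.91 in wild type, a difference of -0.065 (SE 0.089) that is small although the groups do not overlap. The other 6 genes (ndhA, ndhC, ndhD, ndhF, ndhG and ndhH) lay between -0.20 and -0.036. Relative to the wild type mean, the median of the group was -0.22 on cdm1 replicate 1 and -0.11 on cdm1 replicate 2.

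The RNA polymerase genes had the lowest median difference of the 8 groups, -0.44 over 4 genes, and the largest gap between the cdm1 arrays. Their median relative to the wild type mean was -0.75 on cdm1 replicate 1 and -0.15 on replicate 2. The gene rpoC2, for the beta'' subunit, read 7.09 and 7.66 in cdm1, against 8.11 and 7.96 in wild type, a difference of -0.65 (SE 0.19, limma adjusted p = 0.199). Its partner rpoC1 was at -0.40 (SE 0.15, limma adjusted p = 0.299). The alpha subunit gene rpoA read 11.33 and 12.15 in cdm1, against 12.05 and 12.37 in wild type, and its replicates in cdm1 differed by more than the genotype difference of -0.47 (SE 0.27). At a dim 3.51 and 3.59 in cdm1, against 3.80 and 3.59 in wild type, rpoB was at -0.14 (SE 0.11), and cdm1 replicate 2 lay below wild type replicate 2 by less than these decimals show. No polymerase gene passed the test.

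Plastid ribosomal protein genes were mixed, with a median of -0.13 over 15 genes, 11 of them below 0. The small subunit gene rps15 read 7.35 and 7.79 in cdm1, against 8.33 and 8.17 in wild type, a difference of -0.69 (SE 0.16, limma adjusted p = 0.136). The gap between the groups of rps15 was wider than the distance between the wild type arrays (replicate 1 minus replicate 2, 0.16). It was narrower than the distance between the cdm1 arrays (-0.44). Below 0 without overlap lay also rps2 at -0.44 (SE 0.15), rpl14 at -0.41 (SE 0.14), rpl16 at -0.39 (SE 0.12), rps4 at -0.26 (SE 0.11) and rps19 at -0.15 (SE 0.10). The rps4 probe set read 12.19 and 12.42 in cdm1, against 12.55 and 12.58 in wild type. The rpl20 probe set read 6.97 and 7.83 in cdm1, against 7.88 and 7.72 in wild type, and its difference of -0.40 (SE 0.27) was 0.034 without cdm1 replicate 1. The other 8 genes lay between -0.13 and 0.060, among them rps3 at 0.0021 and rpl32 at 0.0052. After a second quantile normalisation rps3 and rpl32 were at -0.030 and -0.026, as psbF was at -0.039.

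**Figure D3:**
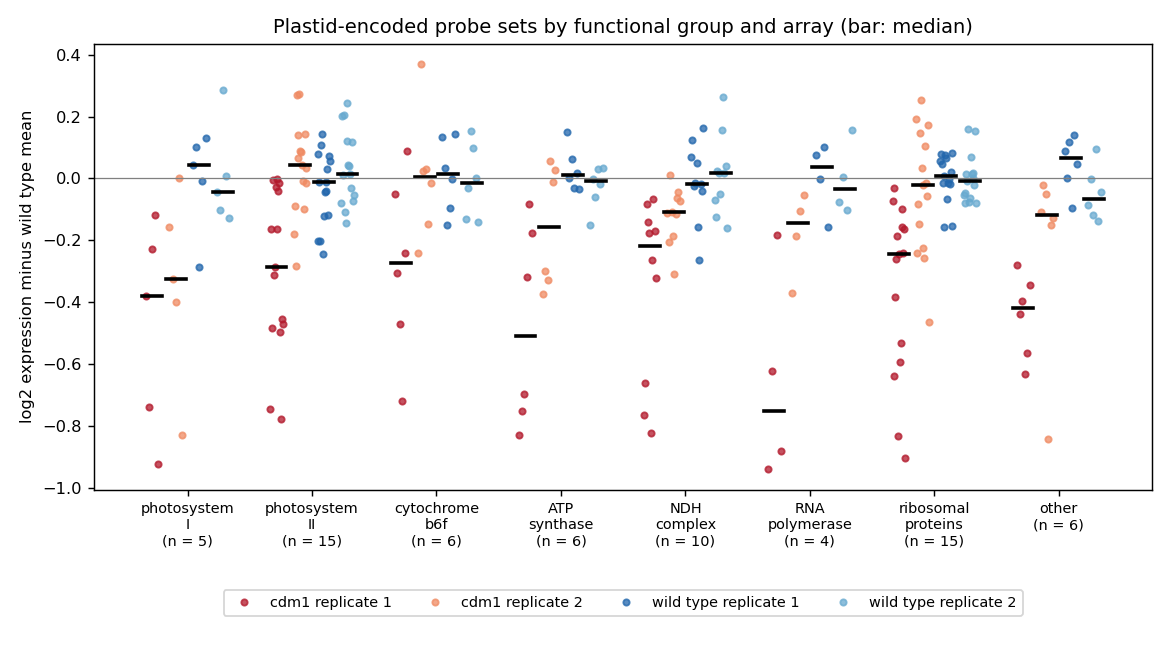
Log2 expression minus the wild type mean (vertical axis) of every plastid-encoded probe set, by functional group and array, with a bar at the median of each array. The cdm1 replicate 1 medians run from -0.75 (RNA polymerase) to -0.22 (NDH complex), while the cdm1 replicate 2 medians run from -0.32 (photosystem I) to 0.042 (photosystem II).

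Among the other genes, accD stood nearest to a call. It encodes the plastid subunit of acetyl-CoA carboxylase, the first enzyme of fatty acid synthesis. Its probe set (locus ArthCp031) read 8.19 and 7.98 in cdm1, against 8.73 and 8.92 in wild type, a difference of -0.74 (SE 0.12, limma adjusted p = 0.0572). Unlike most members, accD was lower on cdm1 replicate 2 than on replicate 1, and its genotypes did not overlap. Its limma adjusted p was under 0.05 after a second quantile normalisation (0.0473), with a variance trend (0.0406, or 0.0241 with robust estimation) and without cdm1 replicate 1 (0.0493), where the spread came from the wild type pair alone. It was 0.256 with the replicate number as a block, 0.0543 without cdm1 replicate 2, 0.302 and 0.387 with wild type replicate 1 or 2 left out, and 0.487 with ordinary p-values.

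The protease gene clpP read 12.21 and 12.42 in cdm1, against 12.60 and 12.51 in wild type, a difference of -0.24 (SE 0.11, limma adjusted p = 0.385). The maturase gene matK, whose product helps splice plastid introns, was at -0.19 (SE 0.11), without overlap. For rbcL, the large subunit of the carbon-fixing enzyme Rubisco, the values were 10.44 and 10.79 in cdm1 and 10.95 and 10.72 in wild type, a difference of -0.22 (SE 0.15, limma adjusted p = 0.538) with overlapping groups.

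**Figure D4:**
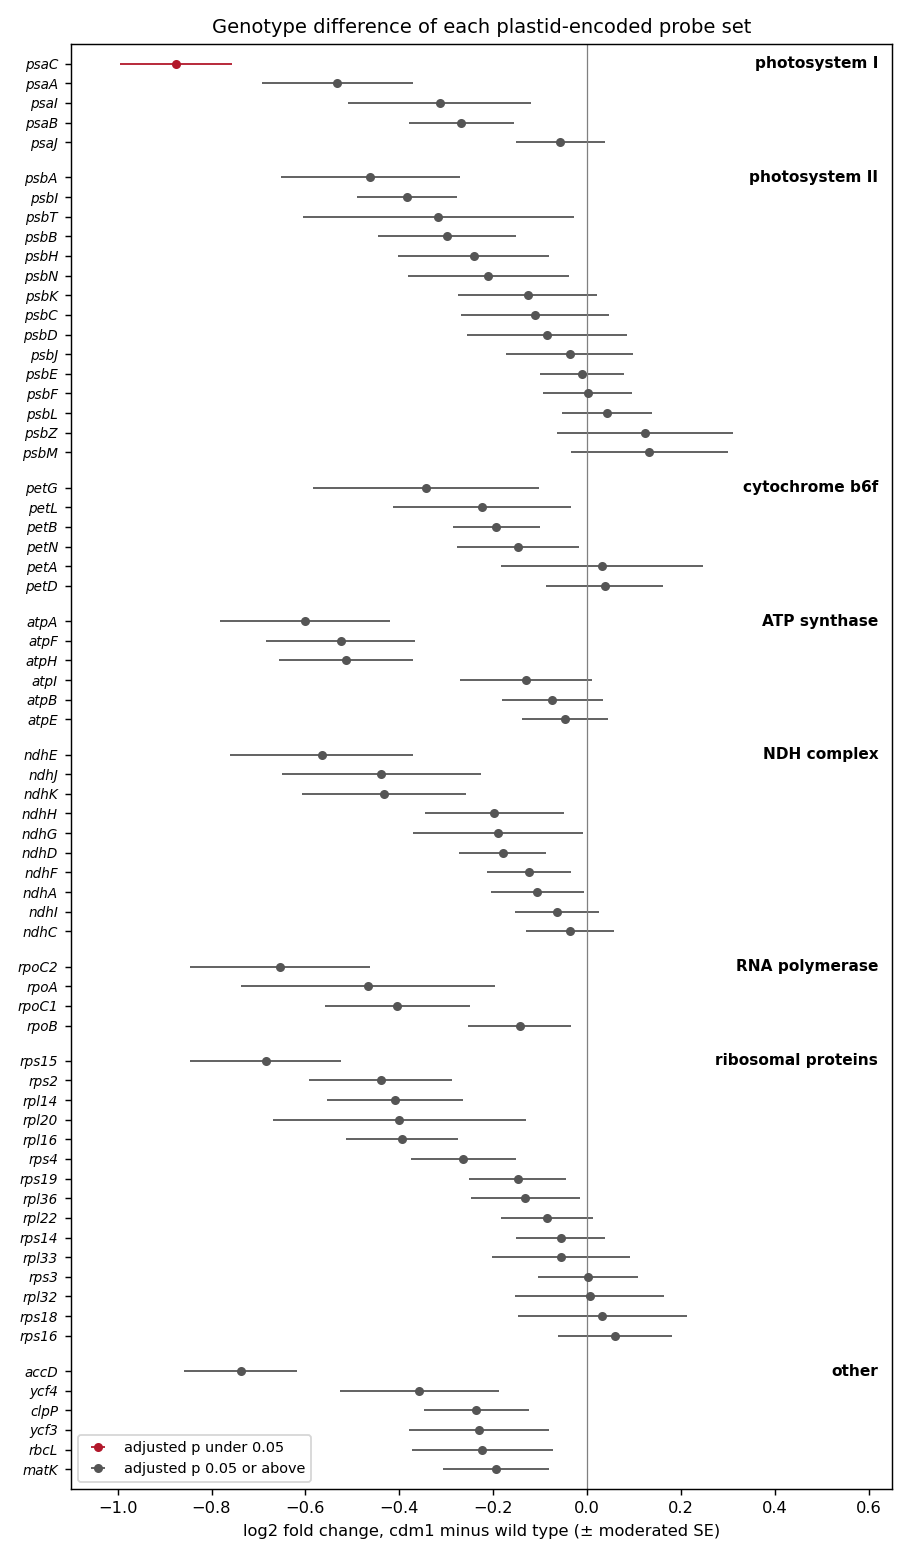
Log2 fold change, cdm1 minus wild type (horizontal axis), with its moderated standard error, for the 67 plastid-encoded probe sets in 8 functional groups. Most points lie left of 0, from -0.88 (psaC, the 1 member with an adjusted p under 0.05) to 0.13 (psbM).

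Set side by side, accD, rpoB, rpoC1 and rpoC2, read by the phage-type polymerase, had a median difference of -0.53, and the 20 photosystem genes, -0.17. On cdm1 replicate 1 these groups lay at -0.63 and -0.30 relative to the wild type mean, and on cdm1 replicate 2 at -0.28 and -0.0029. Non-overlapping genotypes occurred in 4 of 4 and in 6 of 20 genes, against 23.6% of all probe sets. The 3 rpo genes among the 4 belong to the same operon, so they are not independent of each other. Of the 4, rpoB was dim and its groups barely apart, with cdm1 replicate 2 at 3.5919 and wild type replicate 2 at 3.5948. The difference between these groups was not tested. Within the photosystem genes, the median difference was -0.31 for photosystem I and -0.11 for photosystem II. The members also differed by signal: the 34 brighter ones by mean over all arrays had a median difference of -0.13 and the 33 dimmer ones -0.24.

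Neighbouring genes that are transcribed together did not all read alike. The grouping into 13 known clusters was made after the values were seen, as was the choice of the 4 described here. The clusters' medians ran from -0.51 (rps2 to atpA) to -0.0049 (psbE to psbJ). In the cluster rps2, atpI, atpH, atpF and atpA, 4 genes lay between -0.60 and -0.44 and atpI at -0.13. On cdm1 replicate 2 alone, relative to the wild type mean, those 4 lay between -0.37 and -0.24 and atpI at 0.058. In the cluster of ndhC, ndhK and ndhJ, the last 2 were at -0.43 and -0.44 and ndhC at -0.036, while on cdm1 replicate 2 alone they lay at -0.21, -0.11 and 0.010, so that most of this contrast was on cdm1 replicate 1. The genes psbE, psbF, psbL and psbJ lay between -0.037 and 0.042. The called gene psaC lies among ndh genes, next to ndhE at -0.57 and ndhD at -0.18. Farther along the same cluster, ndhG was at -0.19, ndhI at -0.065, ndhA at -0.11 and ndhH at -0.20, and rps15, beyond ndhH, was at -0.69. Each value comes from 1 probe set, so a difference between neighbours was not checked with a second probe set of the same gene.

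**Figure D5:**
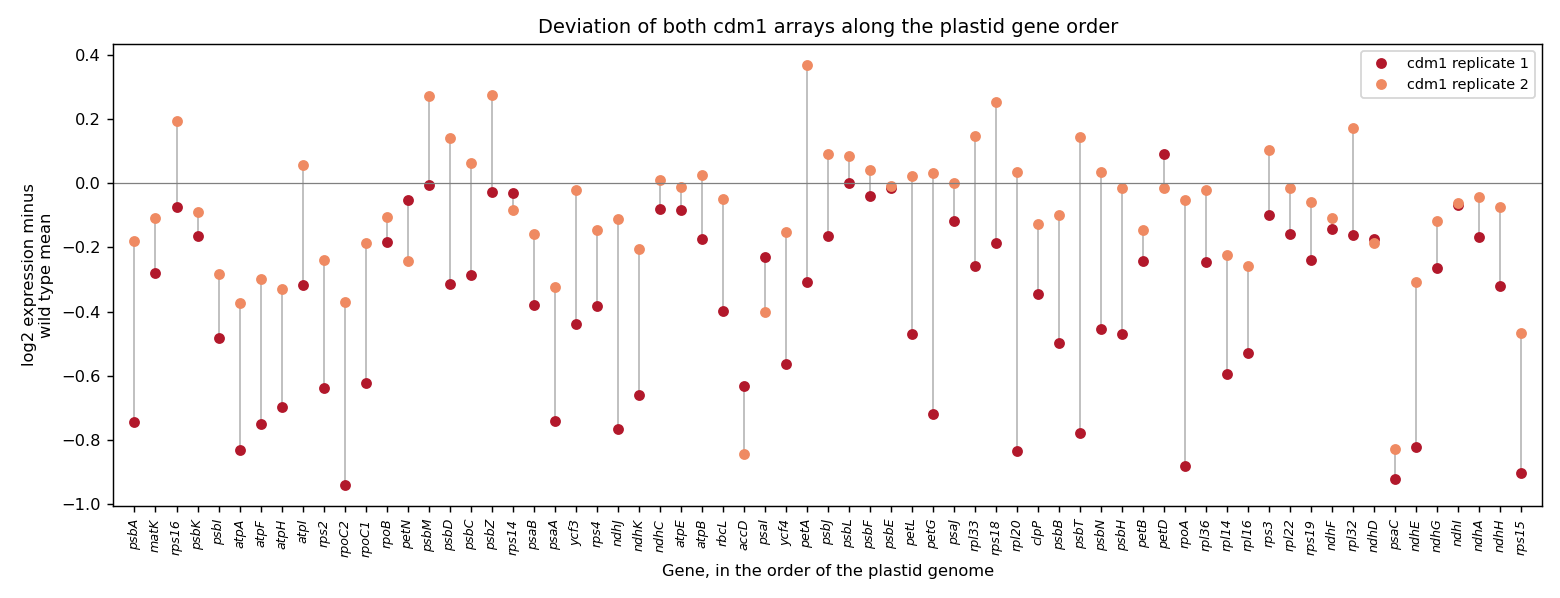
Log2 expression minus the wild type mean (vertical axis) on both cdm1 arrays for the 67 genes in the order of the plastid genome (horizontal axis). A grey line joins the arrays of a gene. Cdm1 replicate 1 lies lower for 61 genes, and psaC and accD are low on both arrays.

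Nuclear genes whose products work with the plastid-encoded ones gave no call. Lists were matched by symbol, and 27 of their probe sets were measured. None passed at an adjusted p of 0.05 (1.33% of all probe sets did). At an unadjusted p of 0.05 none passed either, against 7.55% lower and 7.7% higher over all probe sets. Of the 27, 15 were below 0 (55.6%, against 49% of all probe sets), and their median difference was -0.0049. On the arrays this median lay at 0.030 for cdm1 replicate 1 and at -0.032 for cdm1 replicate 2, relative to the wild type mean. Antenna and photosystem subunits (6 of 39 listed genes) had a median of 0.047, with LHCB4.3, a minor antenna protein of photosystem II, at 0.090 (SE 0.096). Other photosynthetic subunits (4 of 16) had a median of -0.0039, with ATPC2, a gamma subunit of the ATP synthase, at -0.044 (SE 0.091).

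Nuclear NDH subunits and NDH-related CRR genes (8 of 24) had a median of -0.060, with 7 below 0 (87.5%, against 49% of all probe sets). In 3 of them (37.5%) both cdm1 arrays lay below both wild type arrays, against 23.6% of all probe sets. On cdm1 replicate 1, 3 lay below the wild type mean, and on cdm1 replicate 2, 8 did (44% and 55.7% of all probe sets). The subunit gene NdhS read 9.94 and 9.89 in cdm1, against 10.08 and 10.10 in wild type, a difference of -0.17 (SE 0.090, limma adjusted p = 0.422). Of the chlorophyll synthesis list (6 of 20, median 0.040), GSA1, for an early enzyme of the pathway, was at 0.19 (SE 0.099, limma adjusted p = 0.433). The list ran from -0.34 to 0.21, with 3 of the 6 below 0. The plastid division gene FTSZ2-2 was at 0.18 (SE 0.10), and the other of the 2 measured genes of 11 on its list was at -0.034 (SE 0.10). MRL7-L, the 1 measured gene of 32 on the plastid transcription list, was at 0.0075 (SE 0.091). Sigma factors, nuclear-encoded plastid ribosomal proteins and the genes of the RNA processing list are not analysed here.

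Transcripts of the other organelle genome served as a further comparison. The 18 mitochondrion-encoded probe sets, of 11 genes matched by symbol, had a median difference of -0.063. Of them, 15 were below 0 (83.3%), against 85.1% of the plastid members and 49% of all probe sets. Limma called none of them at an adjusted p of 0.05, where 1.33% of all probe sets passed. None passed at an unadjusted p of 0.05 either, against 7.55% lower and 7.7% higher over all probe sets. Relative to the wild type mean, the mitochondrial median lay at -0.071 on cdm1 replicate 1 and at -0.045 on cdm1 replicate 2. Most of these probe sets were dim, with array medians of 5.25 to 5.47, against 9.08 to 9.61 for the plastid members. Several stand for the same gene, nad1. The brightest, of nad4, cox1 and nad9, lay at -0.43, -0.77 and -0.36 on cdm1 replicate 1. On cdm1 replicate 2 they lay at -0.074, -0.058 and 0.19. The others ran from -0.37 (a nad5 probe set) to 0.30 (cox2) on cdm1 replicate 1. Cdm1 replicate 1 was the lowest array for 8 of 18 (44.4%), against 24.1% of all probe sets. Whether the plastid and mitochondrial sets differ was not tested.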

How the data were processed

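The authors deposited 1 log2 expression value per probe set and array. RMA and affy stand in the submitters' processing notes, with versions not given in the sources used here. Values between 2.64 and 14.02, with array medians of 7.21 to 7.24, set the scale as log2. RMA equalises the arrays' distributions and compresses the changes of dim probe sets. Detection calls were not used here. With 4 arrays, their number limits the precision.

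GEO's platform annotation gave 1 gene symbol for 13513 probe sets, several for 503 and none for 8730. Plastid location came from the gene table of TAIR10.1 through gene IDs. Its coordinates served only for gene order.

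Genotype was the only term of a linear model in limma 3.58.1 (R 4.3.3), fitted to all 22746 probe sets with empirical Bayes moderation (2 residual and 4 prior degrees of freedom). The two-sided p-values of all probe sets were adjusted together (Benjamini-Hochberg, threshold 0.05). The step was tested on simulated data. Every member is accounted for. Array values are given for psaC and, in each functional group, for the genes with the highest mean, the largest difference and the smallest p. From each nuclear list the gene with the smallest p is named. The array values of psaA, psbF, rpoB, rpl20, rbcL, ndhF and ndhA were added after the values were seen. So were the values of single mitochondrial genes. The members, lists and tests were chosen with earlier results of these data known. Alternatives covered normalisation, a filter on dim probe sets, the variance prior, ordinary p-values, the replicate number as a block, left-out arrays, 1 probe set per locus and shared probe sets.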

Additional observations from a re-analysis of the deposited data

How the results depend on the processing

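The 1 called member, psaC, became 2 (psaC and accD) after a second quantile normalisation, with the variance trend and with its robust form. It became 0 with ordinary linear-model p-values (psaC adjusted p = 0.465) and with the replicate number as a block (psaC limma adjusted p = 0.218). At an unadjusted p of 0.05, 3 and 12 members were lower in those fits. Leaving out 1 array gave 0 to 16 called members and 0 to 1040 called probe sets in all. The block gave 0 calls over all probe sets (3110 at an unadjusted p of 0.05), ordinary p-values 1 (2261), the robust trend 465 and 1 probe set per named locus 201, with fewer probe sets tested, against 303. Same-numbered arrays' deviations correlated at -0.066, and no label says that a number marks a shared batch, so the numbers were not taken to pair the arrays. No member passed as higher in any of these fits. The cause of these changes was not tested, except that left-out arrays and the block leave fewer degrees of freedom. Over left-out arrays, 45 to 66 members were below 0, and the medians ran from -0.31 to -0.062 for all members, -0.43 to -0.31 for photosystem I, -0.29 to 0.042 for photosystem II, -0.27 to 0.0039 for cytochrome b6f, -0.51 to -0.16 for ATP synthase, -0.22 to -0.11 for NDH, -0.75 to -0.15 for RNA polymerase, -0.24 to -0.020 for ribosomal proteins and -0.42 to -0.12 for the others. Nuclear lists ran from -0.0035 to 0.071 (antenna), -0.024 to 0.021 (other subunits), -0.12 to 0.027 (NDH) and -0.020 to 0.063 (chlorophyll), where a second quantile normalisation gave 0.020 and the filter on dim probe sets -0.053. That filter kept 62 members. Replicate differences need both arrays of a genotype and so have no value where 1 is left out.

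Signs turned for the following genes. After a second quantile normalisation, rpl32 was at -0.026, psbF at -0.039 and rps3 at -0.030. Over left-out arrays the ranges were -0.023 to 0.038 (MRL7-L), -0.17 to 0.026 (atpB), -0.32 to 0.058 (atpI), -0.082 to 0.010 (ndhC), -0.45 to 0.074 (ndhG), -0.31 to 0.37 (petA), -0.11 to 0.18 (petD), -0.72 to 0.031 (petG), -0.47 to 0.022 (petL), -0.12 to 0.0020 (psaJ), -0.29 to 0.064 (psbC), -0.31 to 0.14 (psbD), -0.025 to 0.0024 (psbE), -0.040 to 0.042 (psbF), -0.16 to 0.090 (psbJ), -0.33 to 0.074 (psbK), -0.0019 to 0.086 (psbL), -0.071 to 0.34 (psbM), -0.45 to 0.034 (psbN), -0.78 to 0.14 (psbT), -0.12 to 0.37 (psbZ), -0.83 to 0.034 (rpl20), -0.16 to 0.17 (rpl32), -0.26 to 0.15 (rpl33), -0.073 to 0.19 (rps16), -0.19 to 0.25 (rps18) and -0.10 to 0.10 (rps3).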
